A study of Mus musculus with 46 samples.

Results

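The regions described here were 7864 intergenic H3.3 peaks that induced pluripotent stem cells (iPSCs) shared with embryonic stem cells and that fibroblasts of day 0 did not have. They were chosen by their peaks in 3 H3.3 ChIP-Seq libraries. Each was a peak of the iPSC list whose midpoint lay outside every protein-coding gene extended by 1 kb (mm9, GENCODE vM1), which overlapped a peak of the embryonic stem cell line D3 (ESD3) by 1 bp or more and which overlapped no peak of the fibroblasts on day 0 (D0). Of 81542 iPSC H3.3 peaks on assembled chromosomes, 31003 were intergenic, 11146 of these overlapped an ESD3 peak, and 7864 remained after peaks shared with D0 were set aside. The members therefore made up 9.64% of all iPSC peaks and 25.4% of the intergenic ones. Presence in iPSCs and ESD3 and absence from D0 are properties of the rule and not findings.

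The cells were mouse embryonic fibroblasts (MEFs) of E13.5 embryos that carry IRES-EGFP downstream of Oct4 and were infected with retroviral Oct4, Sox2, Klf4 and c-Myc. Cells were taken unsorted on days 0 (D0) and 3 (D3), sorted on days 6 and 9 by Thy-1, a surface protein of fibroblasts, and on days 12 and 16 by SSEA-1, an antigen associated with pluripotency. D6T-, D9T-, D12S+ and D16S+ were the fractions of the successful route to iPSCs, and D6T+, D9T+, D12S- and D16S- were those of the unsuccessful route, so the later sorts cannot be compared with the earlier ones by time alone. A separate transdifferentiation of fibroblasts to hematopoietic cells with Scl, Lmo2, Runx1 and Bmi1 gave the libraries MEF, D4, cKit+ and cKit-. Every group had 1 library, so no value below carries a replicate check, and the intervals given are 95% Wilson intervals that cover counting error only.

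H3.3 is a histone H3 variant that is placed in chromatin outside DNA replication. The chaperone Hira deposits it at active genes and regulatory elements, and Atrx with Daxx deposits it at heterochromatin, telomeres and endogenous retroviruses. Intergenic H3.3 in pluripotent cells can therefore mark both enhancers and retroviral repeats. H3K4me3, trimethylated lysine 4 of histone H3, is the mark of active and poised promoters.

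The 12 reprogramming H3.3 libraries held between 18.7 and 41.2 M tags and between 34062 and 89727 peaks, and D16S+ had the fewest of both. Peaks at marker genes matched the labels at the ends of the series. An H3.3 peak was found at 10 of 10 fibroblast markers in D0 and at 0 of 10 in ESD3, and at 8 of the 9 annotated pluripotency markers in iPSCs, 6 in ESD3 and 2 in D0. The unsuccessful fractions kept peaks at 8 to 10 fibroblast markers. On the successful route this count fell from 7 on day 6 through 6 and 5 to 1 on day 16, and iPSCs had 3. Pluripotency markers with a peak numbered 4, 6, 7 and 6 by day on the successful route. On the unsuccessful route they numbered 1, 1, 4 and 4. Libraries with more fibroblast chromatin also resemble D0, against which the members were chosen, and the part of this in the route differences below was not tested.

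As examples, 6 stretches of 300 bases are shown from members nearest to genes of a pluripotency list. Of the 15 named members of this kind, these were the ones that held one of 3 short motifs: the Oct4 octamer ATGCAAAT, the letters TTGTNATGC that span a Sox2 and an Oct4 site, or the Esrrb site TCAAGGTCA, searched on both strands. The windows are from the plus strand of mm9 and were picked after the matches were known. Capitals mark the match.
Nanog member (first bases of the peak, chr6:122650009-122650308): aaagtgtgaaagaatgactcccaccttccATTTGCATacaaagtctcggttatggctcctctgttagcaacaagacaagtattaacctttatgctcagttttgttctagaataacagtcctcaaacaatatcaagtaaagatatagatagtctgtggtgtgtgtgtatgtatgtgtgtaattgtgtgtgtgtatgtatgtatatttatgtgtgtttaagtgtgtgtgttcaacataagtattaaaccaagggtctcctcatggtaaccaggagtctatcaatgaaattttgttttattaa
Prdm14 member (chr1:13070535-13070834): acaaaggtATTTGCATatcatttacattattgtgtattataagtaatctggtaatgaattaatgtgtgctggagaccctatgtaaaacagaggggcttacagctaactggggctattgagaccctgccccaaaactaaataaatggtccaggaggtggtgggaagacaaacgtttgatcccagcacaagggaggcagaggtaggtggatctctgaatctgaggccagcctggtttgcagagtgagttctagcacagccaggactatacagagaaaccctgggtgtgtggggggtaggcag
Id3 member (chr4:135661838-135662137): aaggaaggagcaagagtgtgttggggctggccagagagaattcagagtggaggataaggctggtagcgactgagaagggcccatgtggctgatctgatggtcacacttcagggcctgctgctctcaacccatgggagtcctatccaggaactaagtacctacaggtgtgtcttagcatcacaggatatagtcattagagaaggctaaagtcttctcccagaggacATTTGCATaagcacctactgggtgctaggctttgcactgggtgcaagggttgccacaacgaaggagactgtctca
Sall1 member (chr8:91537444-91537743): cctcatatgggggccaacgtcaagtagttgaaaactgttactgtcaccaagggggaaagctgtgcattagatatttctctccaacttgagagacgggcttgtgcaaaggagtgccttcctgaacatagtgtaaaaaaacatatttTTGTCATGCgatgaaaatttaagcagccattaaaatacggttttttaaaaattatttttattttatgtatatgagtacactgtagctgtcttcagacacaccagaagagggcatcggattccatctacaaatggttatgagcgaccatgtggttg
Klf5 member (chr14:99724826-99725125): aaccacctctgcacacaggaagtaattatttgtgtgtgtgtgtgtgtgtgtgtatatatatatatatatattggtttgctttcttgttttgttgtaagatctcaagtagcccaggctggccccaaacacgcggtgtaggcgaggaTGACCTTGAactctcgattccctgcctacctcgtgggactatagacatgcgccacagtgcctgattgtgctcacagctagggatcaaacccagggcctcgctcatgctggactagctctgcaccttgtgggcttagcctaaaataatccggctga
Dppa2 member (chr16:48302346-48302645): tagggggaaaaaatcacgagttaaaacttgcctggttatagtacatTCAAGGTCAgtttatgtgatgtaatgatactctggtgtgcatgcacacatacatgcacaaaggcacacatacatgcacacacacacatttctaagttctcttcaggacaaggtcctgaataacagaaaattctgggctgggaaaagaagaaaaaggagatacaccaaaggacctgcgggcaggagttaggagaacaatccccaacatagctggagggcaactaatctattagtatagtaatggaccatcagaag
The Nanog, Prdm14 and Id3 windows each hold the octamer, the Sall1 window holds the Sox2 and Oct4 junction, and the Klf5 and Dppa2 windows hold the Esrrb letters. No match of these 3 motifs was found in the other 9 named peaks, which says only that these letters are not there. Whole peaks of 2121 to 9227 bp were searched, and matches in other stretches of such length were not counted. In windows of only 500 bp beside members, the octamer was in 4.37%, the junction in 1.11% and the Esrrb letters in 1.26%. The matches are therefore not shown to be particular to these peaks.

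The members were stronger and longer peaks than the rest of the iPSC list. Their median score, the deposited tag count per 10 M tags, was 17.5 (quartiles 9.48 and 30.4) in iPSCs, against 7.65 for the 16612 intergenic iPSC peaks with neither an ESD3 nor a D0 peak. Median length was 1309 bp in the members and 633 bp in those unshared intergenic peaks. Per kb the medians were closer, 12.9 against 11.7, and the median fold over input was 3.41 against 3.37. The 3282 intergenic iPSC peaks with both an ESD3 and a D0 peak were stronger still, with a median score of 27.0 and a median length of 2062 bp. Longer peaks have more chance to overlap another list. Shares were also read within quartiles of score, but length itself was not matched and its part was not tested.

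At the edges of the rule, 189 members had less than 10% of their length covered by ESD3 peaks, with a median iPSC score of 11.2. Just outside it, 1887 intergenic peaks without a D0 peak had an ESD3 peak within 1 kb but no overlap, with a median iPSC score of 7.53. A D0 peak lay within 1 kb of 568 members. Over all members, the median share of the iPSC peak covered by ESD3 peaks was 54.7%. Fibroblasts of the transdifferentiation series (MEF), a library the rule did not use, had a peak at 5.15% of members, near the 5.68% of all iPSC H3.3 peaks without a D0 peak (21.1% of all iPSC H3.3 peaks, D0 peaks included).

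Along the successful route the share of members with an H3.3 peak rose from library to library. An H3.3 peak was present at 7.43% of members in D3, at 18.8% and 23.3% in D6T- and D9T-, and at 39.2% and 46.0% in D12S+ and D16S+. The corresponding shares of all iPSC H3.3 peaks were 29.8%, 39.9%, 35.9%, 30.4% and 25.2%, so the members lay below this background up to D9T- and above it in D12S+ and D16S+. That background includes peaks already present in D0. Among the 52710 iPSC peaks without a D0 peak the shares were 11.2% in D3, then 21.7% and 20.3% in D6T- and D9T-, 19.4% and 19.2% in D12S+ and D16S+, which stayed near one level from D6T- on while the members rose. The interval of the members in D16S+ was 44.9% to 47.1%, and that of the unshared intergenic peaks was 13.4% to 14.4%. D16S+ had the shortest peak list, so its higher share of members did not go with a larger number of peaks. With only peaks of 4 or more times input, which left 1751 members, the rise was not steady. The shares were then 4.00% in D3, 6.34% and 2.86% in D6T- and D9T-, 25.1% and 38.5% in D12S+ and D16S+.

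**Figure D1:**
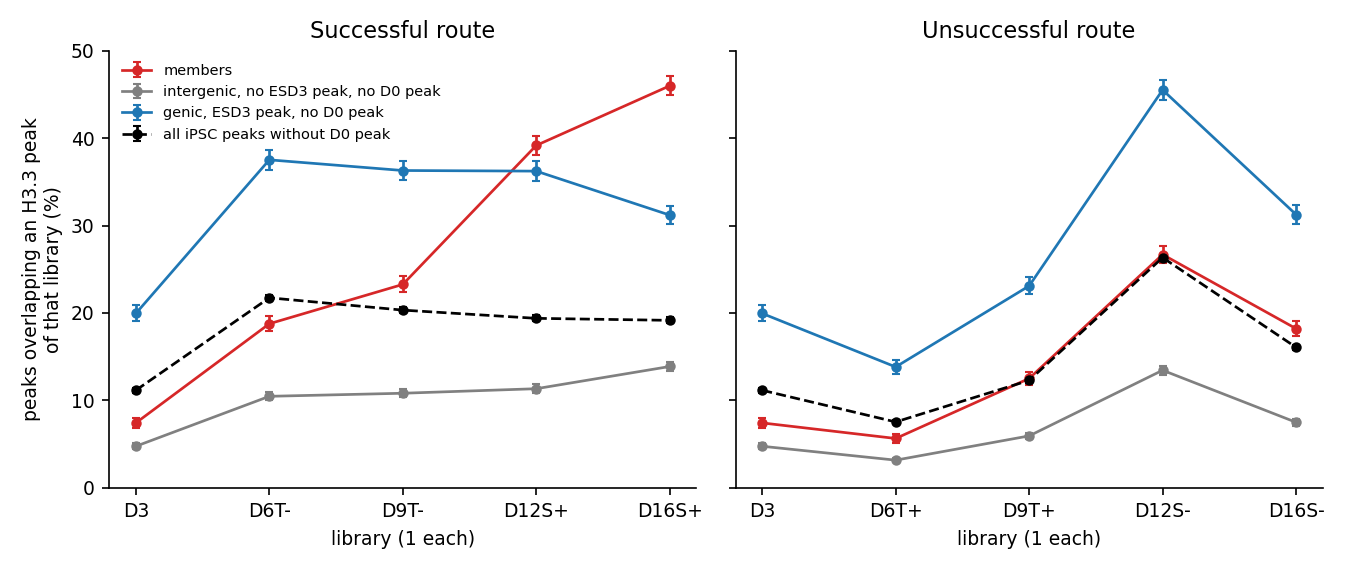
Share of iPSC H3.3 peaks that overlap an H3.3 peak of each library, in percent, for the successful (left) and the unsuccessful route (right), with 95% Wilson intervals as bars and 1 library per point. The members climb from 7.43% in D3 to 46.0% in D16S+ on the left, and on the right they peak at 26.7% in D12S- and stand at 18.2% in D16S-.

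On the unsuccessful route fewer members had a peak. The shares were 5.65% and 12.5% in D6T+ and D9T+, 26.7% and 18.2% in D12S- and D16S-, beside 26.3%, 29.9%, 44.8% and 32.9% of all iPSC H3.3 peaks. Among the iPSC peaks without a D0 peak they were 7.54%, 12.3%, 26.3% and 16.1%, so the members lay below these in D6T+, near them in D9T+ and D12S- and above them in D16S-. The fraction of the successful route was the higher one on all 4 days, by 13.1 percentage points on day 6, 10.8 on day 9, 12.5 on day 12 and 27.8 on day 16. The mean difference was 16.0 points ± 7.90 (SD over 4 days). In an exact permutation of the signs of the 4 differences (two-sided), 2 of 16 assignments gave a mean as far from 0, which is the fewest that 4 days allow, so this design cannot pass a threshold of 0.05. For all iPSC peaks the mean difference was -0.660 points, with 2 of 4 days in each direction, for those without a D0 peak it was 4.59 points, and for the unshared intergenic peaks it was 4.12 points. The unsuccessful fraction had the longer peak list on days 12 and 16 and the shorter one on days 6 and 9. When every library was cut to the same number of its highest-scoring peaks, the 4 differences were 10.5, 11.4, 24.1 and 42.0 points. With only peaks of 4 or more times input, the difference of day 9 turned to -1.71 points while day 16 gave 32.2 points. When at least 0.5 of the iPSC peak had to be covered, the mean fell to 8.74 points and day 12 to 1.04 points, 22.3% in D12S+ against 21.3% in D12S-. This was asked of D0 peaks too, so regions with a smaller D0 overlap were let in and the set was not simply a stricter one.

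The same members were compared between the fractions of each day. On day 6, 355 members had a peak in both fractions, 1121 had one in D6T- alone and 89 in D6T+ alone. On day 16, 880 members had a peak in both, 2737 in D16S+ alone and 552 in D16S- alone. On day 12 the fractions were closer, with 1421 members in both, 1659 in D12S+ alone and 678 in D12S- alone. A peak in D12S+ and D16S+ with none in D12S- and D16S- was seen at 1106 members, or 14.1%, against 2.72% of all iPSC peaks and 3.92% of those without a D0 peak. The opposite pattern, D12S- and D16S- without D12S+ and D16S+, was seen at 170 members, or 2.16%, against 7.70% and 4.40% of these backgrounds. Presence in all 4 successful and none of the 4 unsuccessful fractions was rare, at 17 members or 0.216% (0.0589% of all iPSC peaks, 0.0892% of those without a D0 peak). Its mirror image was found at 1 member (0.159% and 0.0341%).

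By day of first peak on the successful route, 584 members (7.43%) had a peak in D3, a further 1041 (13.2%) and 633 (8.05%) first had one in D6T- and D9T-, 1608 (20.4%) and 1225 (15.6%) in D12S+ and D16S+, and 2773 (35.3%) had none before iPSCs. Among the iPSC peaks without a D0 peak these shares were 11.2%, 14.5%, 6.28%, 7.75%, 7.02% and 53.3%. A gain was called lasting when every later library of the route also had the peak. Lasting gain began in D3 for 218 members, in the Thy-1 sorted fractions D6T- and D9T- for 427 and 291, and in the SSEA-1 sorted fractions D12S+ and D16S+ for 1229 and 1452, while 4247 members had it from iPSCs on. Since every member has an iPSC peak by the rule, any peak in D16S+ is lasting by this definition, and the 46.0% of members with a lasting peak before iPSCs is the D16S+ share again. Of the 5091 members with a peak on the route before iPSCs, 35.2% lost it in at least 1 later library. A peak in D3 and in all 4 successful fractions was held by 2.77% of members, against 8.66% of all iPSC peaks and 1.38% of those without a D0 peak. No peak in any of the 9 other reprogramming libraries was found at 2548 members, or 32.4%, against 32.1% of all iPSC peaks and 46.6% of those without a D0 peak. On the unsuccessful route D12S- brought the first peak at 991 members (12.6%), D9T+ at 519 (6.60%), D6T+ at 223 (2.84%) and D16S- at 196 (2.49%). No peak in D3 or in any unsuccessful fraction was found at 68.0%. Among the iPSC peaks without a D0 peak these shares were 11.9%, 6.09%, 4.07%, 2.71% and 64.1%, so the members lay close to this background.

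Within quartiles of iPSC score set over members and unshared intergenic peaks together, the members' shares stayed above those of the unshared peaks in D12S+ and D16S+. In the highest quartile 55.1% of members had a peak in D12S+ and 66.2% in D16S+, against 29.6% and 39.6% of the unshared intergenic peaks. Median scores in that quartile were 30.1 and 23.4, so score was not fully matched there. In the lowest quartile the D16S+ shares were 11.7% and 4.42%. The genic peaks with an ESD3 and no D0 peak took another course, with 37.5% in D6T-, 36.2% and 31.2% in D12S+ and D16S+, so their share was at its highest early and the members' late.

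In the transdifferentiation series, D4 had a peak at 19.1% of members (51.4% of all iPSC peaks), cKit+ at 1.59% (8.56% of all) and cKit- at 1.89% (8.09% of all). Without the D0 peaks the backgrounds were 28.9%, 2.82% and 2.90%. D4 also had the longest list of all the H3.3 libraries, 108179 peaks.

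The members lay far from genes, at a median of 31.0 kb from the nearest protein-coding transcription start site (TSS), with quartiles of 12.1 and 90.4 kb. This was close to the 30.3 kb of the unshared intergenic peaks and more than the 9.84 kb of the intergenic peaks with both an ESD3 and a D0 peak. Between 10 and 50 kb lay 3320 members, or 42.2%, while 790 were within 5 kb and 398 were beyond 500 kb.

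The day on which H3.3 appeared differed with the distance to a gene. Within 5 kb of a TSS, 18.5% of members had a peak in D3, 40.5% each in D6T- and D9T-, and 42.0% and 38.7% in D12S+ and D16S+. Beyond 500 kb the shares were 0.503% in D3, 2.01% and 5.53% in D6T- and D9T-, 32.4% and 58.3% in D12S+ and D16S+. The near members were thus level from D6T- on, and the far members had few peaks until day 12. The order of the distance bands turned between these sorts: in D6T- the share fell with each band, from 40.5% through 25.1%, 18.9%, 15.2% and 10.2% to 2.01%, and in D16S+ it rose with each band, from 38.7% through 41.4%, 45.4%, 46.4% and 50.4% to 58.3%. Neighbouring bands in D16S+ had overlapping intervals, except the last, where 50.4% (47.9% to 53.0%) stood beside 58.3% (53.4% to 63.0%). The median iPSC score, from a library that the rule used, ranged from 16.5 to 18.8 over the bands. Peak strength in the other libraries was not compared by band, and its part in this order was not tested.

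On the unsuccessful route few of the far members had H3.3 peaks. Beyond 500 kb, 0 of 398 members had a peak in D6T+, which allows a share of up to 0.754% (3 counts) and has a Wilson upper limit of 0.956%, and the shares were 2.01% in D9T+, 5.03% and 2.76% in D12S- and D16S-. Within 5 kb the same fractions had a peak at 16.7%, 27.2%, 48.2% and 32.9% of members. For the far members day 16 thus set 232 members in D16S+ against 11 in D16S-. These far members lay on 20 chromosomes, and the shares on autosomes alone were 32.7% and 58.6% in D12S+ and D16S+. The unshared intergenic peaks beyond 500 kb also had more peaks in D16S+ (18.4%) than in D6T- (1.48%), so this order was not particular to the members. Nor was the contrast of routes: of all iPSC peaks without a D0 peak beyond 500 kb, 30.2% had a peak in D16S+ and 1.61% in D16S-, and of the unshared intergenic peaks 18.4% and 0.953%. A sort on a later day and a later day itself cannot be told apart here.

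**Figure D2:**
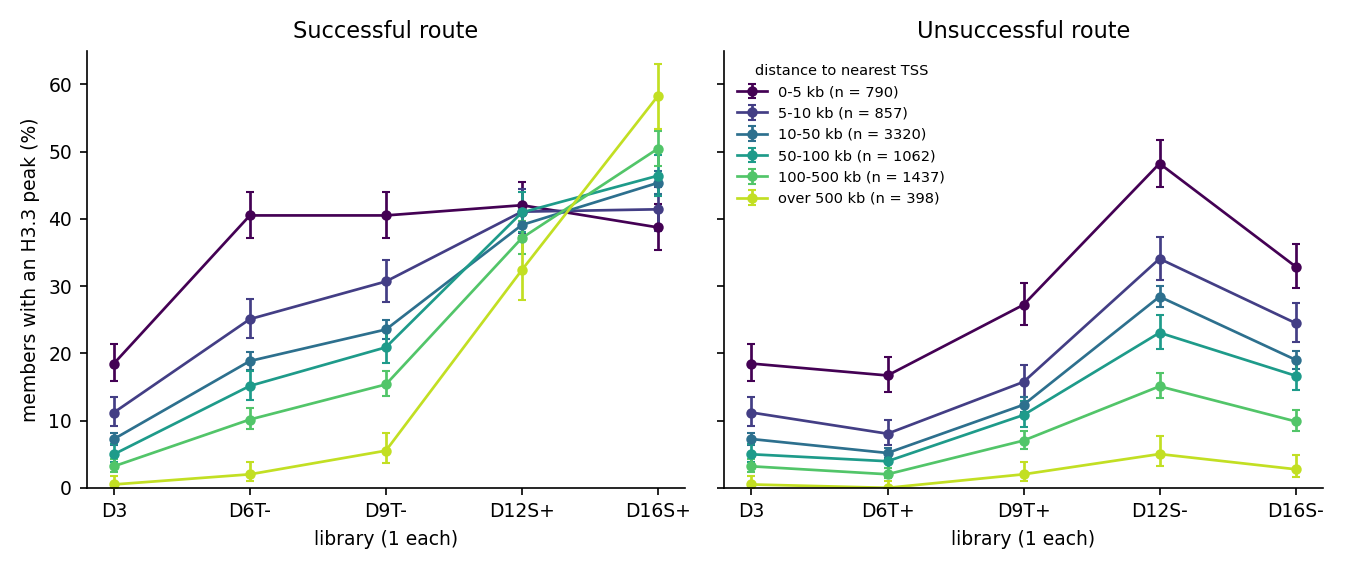
Share of members with an H3.3 peak in each library, in percent, by distance of the midpoint to the nearest protein-coding TSS (6 bands, darkest nearest), with 95% Wilson intervals as bars and 1 library per point. Beyond 500 kb the share goes from 2.01% in D6T- to 58.3% in D16S+ and stays at or under 5.03% on the unsuccessful route, while within 5 kb it is level from D6T- to D16S+.

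The 5 members farthest from any protein-coding TSS, at 2378 to 2491 kb, all lay in one stretch of chromosome 1 between Cntnap5b and Cdh20. The strongest of them (chr1:104046045-104049370) had a score of 52.8 in iPSCs, 30.5 in ESD3 and 14.9 in D16S+, and no peak in any other H3.3 library. The farthest (chr1:104159730-104161518) scored 19.8 in iPSCs, 16.7 in ESD3, 22.0 and 22.1 in D12S+ and D16S+. None of the 5 had a peak in D0, D3, a Thy-1 sorted fraction or a transdifferentiation library.

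Exact sites of a primer pair that the study used for the gag gene of intracisternal A particles (IAPs), a family of endogenous retroviruses, were used to see how many members lie beside such elements. This search was added after the data were seen. A site of either primer lay within 5 kb of 336 members, or 4.27% (3.85% to 4.74%), against 1.66% of all iPSC H3.3 peaks. The share was 4.26% among the unshared intergenic peaks, 0.122% among the intergenic peaks that D0 also had and 1.55% among the genic shared peaks. Reads that map to more than a single place had been removed, so a peak can show only the unique sequence beside such an element.

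H3.3 appeared at the IAP-near members late. Their share with a peak was 0.595% in D3, and 2.38% and 2.08% in D6T- and D9T-. It was 27.4% (22.9% to 32.4%) in D12S+ and 48.2% (42.9% to 53.6%) in D16S+. In D6T+, D9T+, D12S- and D16S- the shares were 0.298%, 1.49%, 2.08% and 2.38%. The other 7528 members had 19.5% and 24.2% in D6T- and D9T-, and 27.8% and 18.9% in D12S- and D16S-. In D12S+ they had 39.7% (38.6% to 40.8%), above the interval of the IAP-near members. In D16S+ they had 45.9%, a share that could not be told from that of the IAP-near members by its interval. The course at IAP-near iPSC peaks outside the members was not counted. IAP-near members were also farther from genes, at a median of 77.7 kb against 30.0 kb, and 8.29% of members beyond 500 kb were IAP-near against 0.886% of those within 5 kb. Without them, the members beyond 500 kb still had 1.92% in D6T- and 60.3% in D16S+.

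**Figure D3:**
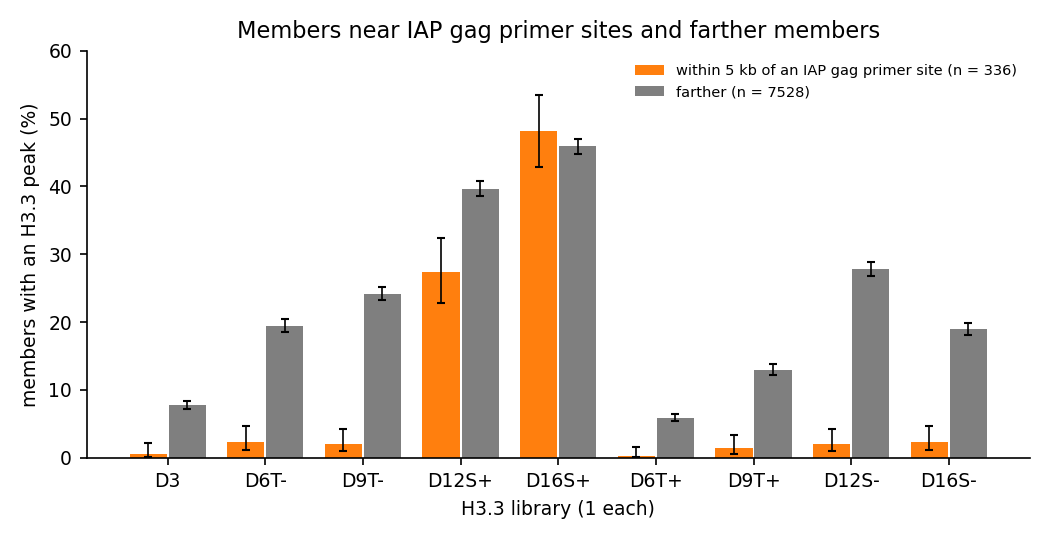
Share of members with an H3.3 peak in each library, in percent, for the 336 members within 5 kb of an IAP gag primer site and the 7528 farther members; bars start at 0, error bars are 95% Wilson intervals, and each library is 1 sample. The IAP-near members stay at or under 2.38% in all libraries shown other than D12S+ (27.4%) and D16S+ (48.2%).

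A minority of members carried H3K4me3 in iPSCs. A peak of this mark overlapped 1931 members, or 24.6% (23.6% to 25.5%), against 29.0% of all iPSC H3.3 peaks, 21.9% of those without a D0 peak, 21.6% of all intergenic iPSC peaks, 13.1% of the unshared intergenic peaks and 34.7% of the genic shared peaks. At these members the H3K4me3 peaks were small, with a median score of 12.7 and a median length of 838 bp, beside 45.1 and 1873 bp at all iPSC H3.3 peaks that had the mark. In the earlier libraries H3K4me3 overlapped 10.2% of members in D0 (25.4% of all iPSC peaks), 8.97% in D3 (22.2%), and 14.7% (27.1%) and 13.6% (24.7%) in D6T- and D9T-. It overlapped 14.1% of members in D12S+ (22.6%) and 8.24% in D16S+ (13.6%). The fall in D16S+ was shared with all iPSC peaks. The D16S+ H3K4me3 library was the weakest of the 7, with 15.8 M tags and 3.71% of them in peaks. The iPSC library had 35.4 M tags and 12.7%, and the part of this in the fall was not tested. Among iPSC peaks without a D0 peak the shares were 14.0% in D0, 13.0% in D3, 17.3% and 15.8% in D6T- and D9T-, 14.8% and 8.57% in D12S+ and D16S+, closer to those of the members. H3K36me3, the mark of transcribed gene bodies, overlapped 3.31% of members in iPSCs, against 10.0% of all iPSC peaks and 2.54% of all intergenic iPSC peaks.

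**Figure D4:**
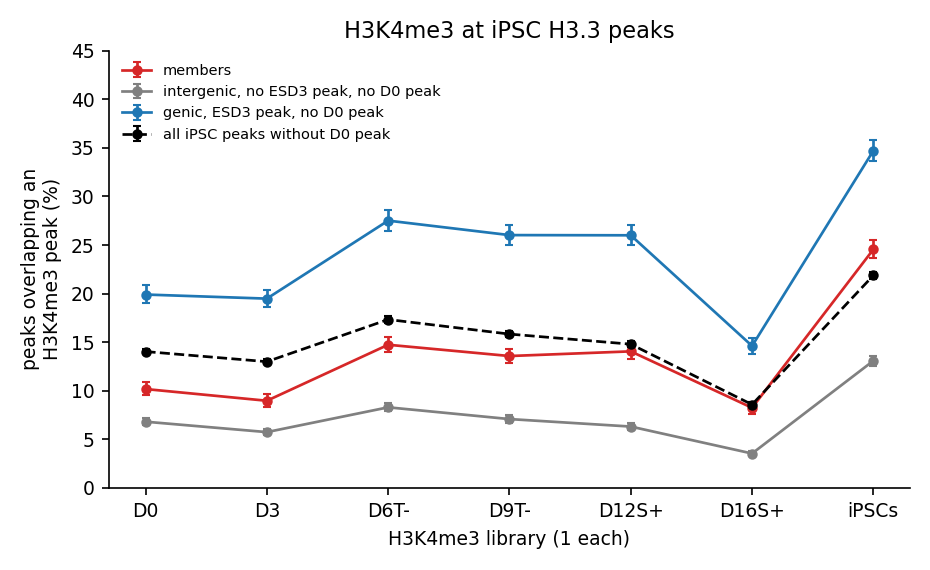
Share of iPSC H3.3 peaks that overlap an H3K4me3 peak of each library, in percent, for the members and 3 other sets of iPSC peaks, with 95% Wilson intervals as bars and 1 library per point. The members go from 8.24% in D16S+, the H3K4me3 library with the fewest tags, to 24.6% in iPSCs. They lie between the unshared intergenic peaks and the genic shared peaks in every library.

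Although no member had an H3.3 peak in D0, 546 of the 1931 members with H3K4me3 in iPSCs (28.3%) already had H3K4me3 there. For 837 of them (43.3%) the first H3K4me3 peak came in iPSCs, and the part of the weak D16S+ library in this was not tested. The 546 count as H3K4me3 first by the rule, which bars an H3.3 peak in D0. Among the 1385 others, the first H3.3 peak was in an earlier library than the first H3K4me3 peak at 718, in the same one at 468 and in a later one at 199, or 51.8%, 33.8% and 14.4%. Among the 5783 iPSC peaks without a D0 peak that gained H3K4me3 after D0, these shares were 39.7%, 43.4% and 16.9%. The H3.3 lists of this route were longer, 34062 to 89727 peaks with a fold of at least 2, than the H3K4me3 lists, 19633 to 41015 peaks with a fold of at least 4, and the part of this in the order was not tested. Members with H3K4me3 had a higher median H3.3 score, 26.5 against 15.3, and were longer, 1987 against 1147 bp. They had H3.3 more often on both routes: 29.6% against 15.2% in D6T-, 55.4% against 42.9% in D16S+ and 30.8% against 14.1% in D16S-. The part of their length in these shares was not tested. Per kb their H3.3 scores were alike, 12.9 in both. H3K4me3 became rarer with distance, from 36.8% of members within 5 kb of a TSS to 13.6% beyond 500 kb, as it did among all iPSC peaks without a D0 peak (42.1% to 8.56%) and among the unshared intergenic peaks (19.4% to 6.46%). At IAP-near members it was found at 13.7% (10.4% to 17.8%), against 25% of the others.

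Annotated non-coding genes took up a small part of the members. The midpoint lay inside a lincRNA at 225 members (2.86%), inside a processed transcript at 158 (2.01%) and inside a pseudogene at 53 (0.674%). For the unshared intergenic peaks these shares were 2.48%, 2.14% and 0.777%. A non-coding TSS was within 1 kb of 4.51% of members with iPSC H3K4me3 and of 1.38% of those without.

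Motif letters were counted in 500 bp windows centred on the midpoints and in windows of the same length 5 kb to either side that held no iPSC peak. The octamer ATGCAAAT, which Oct4 binds, was found in 6.26% of member windows (5.74% to 6.81%), against 4.37% of flanks, 4.56% of the unshared intergenic peaks, 2.89% of the intergenic peaks with D0, 3.45% of the genic shared peaks and 3.44% of all iPSC peaks. The Sox2 and Oct4 junction TTGTNATGC was in 1.93% of members, 1.11% of flanks and 1.38% of all iPSC peaks. The letters of Esrrb, an orphan nuclear receptor of embryonic stem cells, TCAAGGTCA, were in 2.31% of members, 1.26% of flanks and 1.73% of all iPSC peaks. Klf letters (GGGNGTGG) were in 18.2% of members, 13.0% of flanks and 17.7% of all iPSC peaks, AP-1 letters (TGANTCA) in 16.8%, 14.8% and 14.7%, and CTCF core letters (CCACNAGGG) in 2.23%, 1.60% and 1.98%. The octamer and the junction letters can overlap in the same site. GC content was 47.1% in members, 43.1% in flanks and 47.3% in all iPSC peaks, and its part in the motif shares was not tested.

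Of a list of 60 pluripotency genes, 59 annotated, 39 were the nearest gene to at least 1 member. Together they accounted for 153 members, or 1.95% (1.66% to 2.28%), against 1.43% of all intergenic iPSC peaks. A list of 46 fibroblast genes accounted for 14 members, or 0.178%, against 0.232% of all intergenic iPSC peaks. Within the pluripotency list the members were most numerous beside Zfp281, a zinc-finger factor of embryonic stem cells, with 17, followed by the transcription factor genes Sox2 and Tbx3 with 13 each, Jarid2, which encodes a partner of the Polycomb complex PRC2, and Klf5 with 12 each, and Sall1 with 10. Nanog had 4 members and Pou5f1, which encodes Oct4, had 1. Other iPSC peaks were not counted for each gene, and the part of the intergenic span around a gene in these counts was not tested.

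Some members stood in groups. With gaps of up to 20 kb, 3579 members (45.5%) lay in 1356 groups of 2 or more. The same share was not counted for other iPSC peaks, so grouping is not shown to be particular to the members. The largest group held 17 members over 176 kb beside Zfp281 (chr1:138461737-138638051). In it 1 member had a peak in D3, 3 each in D6T- and D9T-, 6 and 7 in D12S+ and D16S+, and 8 had H3K4me3 in iPSCs. A group of 15 members over 105 kb between Aldh1l2 and D10Wsu102e (chr10:82843005-82948241) was more uniform, with 1 member in D6T- and 2 in D9T- but 14 each in D12S+ and D16S+, while none had a peak in D6T+ or D9T+, 4 had one in D12S- and 1 in D16S-. Beside Klf5 a group of 10 members over 45 kb (chr14:99722520-99767503) had 3 in D6T- and 4 each in D9T-, D12S+ and D16S+.

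The scores of single members below are sums over the peaks of a library that overlap the member, per 10 M tags, and a peak that reaches beyond the member counts whole. The libraries given are a selection, and absence of a peak is stated where it applies.

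The Nanog member, 6.21 kb upstream of the TSS of this core pluripotency factor (chr6:122650008-122652576), had H3.3 early and on both routes. Its score was 6.19 in D3, 39.8 and 65.3 in D6T- and D9T-, 74.0 and 88.8 in D12S+ and D16S+, 34.9 in iPSCs and 78.4 in ESD3. On the unsuccessful route it was 49.2 in D9T+, 84.0 and 44.9 in D12S- and D16S-, with no peak in D6T+. It also had 9.85 in MEF and 43.9 in D4. H3K4me3 there went the other way, at 54.1 in D0, 36.4 in D3, 50.0 and 44.7 in D6T- and D9T-, none in D12S+ or D16S+ and 8.34 in iPSCs.

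Members beside Sall1 and Dppa3 were similar in reach. The Sall1 member, 30.2 kb downstream of the TSS of a zinc-finger factor gene (chr8:91534715-91540975), scored 7.16 in D3, 45.4 and 96.7 in D6T- and D9T-, 73.3 and 49.9 in D12S+ and D16S+, 81.9 in iPSCs and 77.5 in ESD3, and its highest score of all libraries was 165.4 in D12S-, with 27.8 in D9T+ and 60.8 in D16S-. The member nearest to Dppa3, which encodes a maternal protein that guards DNA methylation in the early embryo (chr6:122610800-122616402), scored 25.3 and 95 in D6T- and D9T-, 78.0 and 29.1 in D12S+ and D16S+, 75.1 in iPSCs, 81.5 in ESD3, and 17.2, 99.5 and 39.3 in D9T+, D12S- and D16S-. Neither had a peak in D6T+, MEF or D4. For both members the unsuccessful fraction of day 12 had the higher score.

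Other members appeared late and on the successful route alone. The Prdm14 member, 46.6 kb from the TSS of a factor that represses differentiation (chr1:13068109-13073260), scored 25.3 and 24.5 in D12S+ and D16S+, 68.9 in iPSCs and 48.1 in ESD3. The member nearest to the orphan nuclear receptor gene Nr5a2 (chr1:138705932-138708116) scored 6.44 and 25.1 in D12S+ and D16S+, 45.3 in iPSCs and 12.7 in ESD3. The member nearest to Rif1, a gene of replication timing (chr2:51982000-51985194), scored 8.44 and 28.8 in D12S+ and D16S+, 43.5 in iPSCs and 31.5 in ESD3. None of these 3 had a peak in D3, in a Thy-1 sorted fraction, in D12S- or in D16S-.

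The Jarid2 member, 10.3 kb upstream of its TSS (chr13:44809934-44819161), was the strongest of the list at 116.1 in iPSCs, with 9.27 and 42.5 in D6T- and D9T-, 47.9 and 27.0 in D12S+ and D16S+ and 34.5 in ESD3, and 10.9 in D9T+ and 24.9 in D12S-. The Trim71 member, 2.04 kb upstream of the TSS of an RNA-binding ubiquitin ligase gene (chr9:114472657-114478403), had H3K4me3 throughout, at 247.3 in D0, 298.3 and 15.2 in D12S+ and D16S+ and 542.7 in iPSCs. Its H3.3 score was 6.39 in D3, 39.9 and 34.0 in D6T- and D9T-, 41.5 and 39.4 in D12S+ and D16S+, 74.6 in iPSCs and 29.6 in ESD3, with 9.31 in D6T+, 44.9 and 11.2 in D12S- and D16S- and 24.9 in D4. The Tbx3 member (chr5:120156487-120162441) scored 26.9 in D12S+, 71.3 in iPSCs and 91.7 in ESD3, with 9.15 in D12S- and no peak in D16S+. The Id3 member (chr4:135660020-135663954), beside a BMP-induced inhibitor of differentiation factors, had a peak in iPSCs (45.6) and ESD3 (6.01) and in no other H3.3 library.

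**Figure D5:**
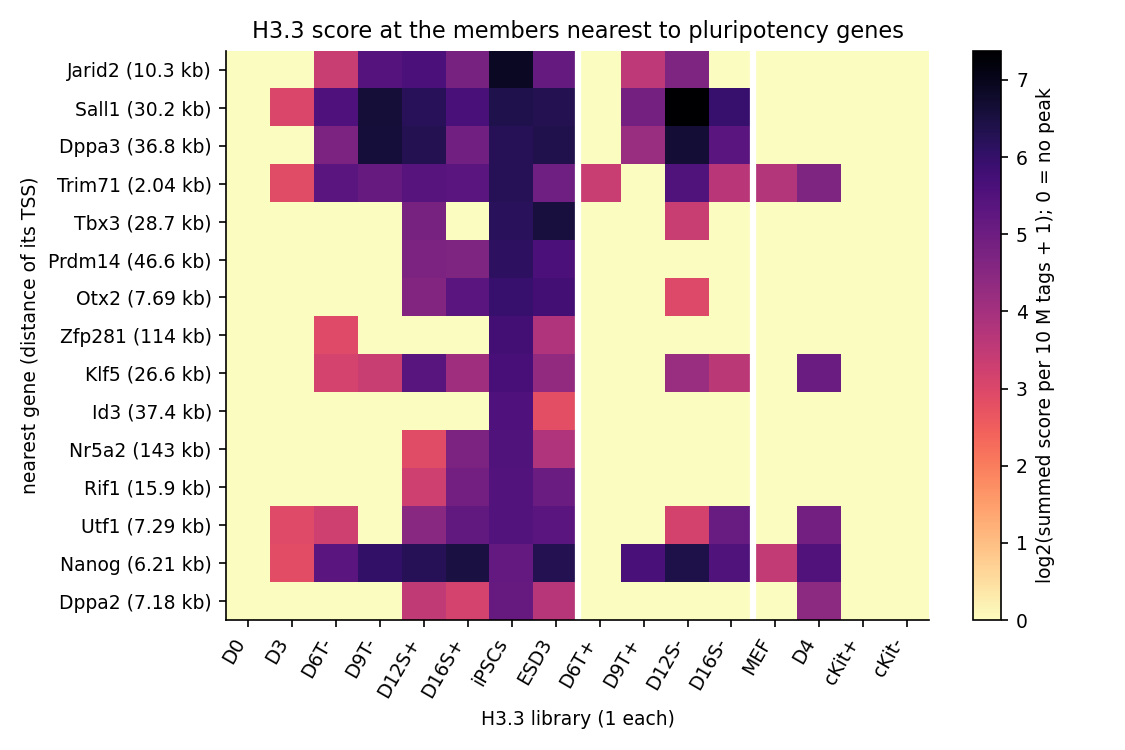
H3.3 score (log2 of the summed score per 10 M tags plus 1, where 0 is no peak) of the 15 named members nearest to pluripotency genes, in rows, across the 16 H3.3 libraries, in columns, with white lines between the successful route with ESD3, the unsuccessful fractions and transdifferentiation. The Nanog, Sall1 and Dppa3 members are dark on both routes from D9T- and D9T+ on, while those of Prdm14, Nr5a2 and Rif1 have peaks in D12S+, D16S+, iPSCs and ESD3 only.

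The highest iPSC scores of all members were mostly in a stretch of zinc-finger genes on chromosome 4. Of the 10 highest, 7 lay there, nearest to Gm13051, Gm13152, Gm13145, Gm13138, Rex2 or Gm13225. The highest (chr4:146025259-146032146) scored 368.5 in iPSCs, 106.8 in ESD3, 62.2 and 85.6 in D12S+ and D16S+ and had no peak in any other H3.3 library. The second (chr4:146839221-146848621) scored 329.2 in iPSCs, 144.6 in ESD3, 88.0 and 180.3 in D12S+ and D16S+, with 9.10 in MEF. These 2 peaks were 6887 and 9400 bp long. Input was also high there, at 4.61 and 2.39 times the median input density of iPSC H3.3 peaks, and its part in these scores was not tested. Of the 37 members between the outermost of these 7 (chr4:145045575-146867037), 32.4% and 40.5% had a peak in D12S+ and D16S+, and none had a peak in D6T-, D9T- or an unsuccessful fraction.

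Outside chromosome 4, the member nearest to the vomeronasal receptor gene Vmn1r77 (chr7:12595589-12602985) scored 276.9 in iPSCs, 298.6 in ESD3, 187.0 and 281.4 in D12S+ and D16S+, with 34.6 in D12S- and 17.2 in MEF, and a peak in D16S- too. The member nearest to Zfp64 (chr2:168662208-168680061), in a group of 9 that also neighbours the zinc-finger factor gene Sall4, spanned 17853 bp and had a peak on every sort. It scored 10.1 in D3, 97.6 and 124.6 in D6T- and D9T-, 47.8 and 42.4 in D12S+ and D16S+ and 216.8 in iPSCs and 88.7 in ESD3, and 9.08, 14.0, 93.3 and 37.0 in D6T+, D9T+, D12S- and D16S-. A member that was strong from day 6 lay 3.06 kb upstream of the TSS of Ssr2 (chr3:88376313-88384749), with 30.6 in D3, 335 and 233 in D6T- and D9T-, 142.2 and 142.5 in D12S+ and D16S+ and 110.4 in iPSCs. It was strong on both routes, with 23.3 and 81.5 in D6T+ and D9T+, 234.7 and 112.6 in D12S- and D16S-, and 170.5 in ESD3.

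Among the 17 members found in all 4 successful and in no unsuccessful fraction, the strongest was 16.2 kb upstream of the TSS of Sfpq, a splicing factor gene (chr4:126680185-126684518), with 9.61 and 7.41 in D6T- and D9T-, 16.2 and 16.8 in D12S+ and D16S+ and 66.7 in iPSCs. It was also IAP-near. The member nearest to Hfe2 (chr3:96296307-96298585) scored 11.6, 26.1, 25.3 and 45.3 in the same fractions and 56.9 in iPSCs, and that nearest to Senp6 (chr9:79895014-79897585) scored 9.27, 15.8, 23.5 and 33.1, and 47.9 in iPSCs. The highest iPSC H3K4me3 score of the named members was 628.1, at the member nearest to Gm13138 (chr4:146347913-146354164), which had no H3K4me3 peak in any earlier library. Input density at this member was 5.68 times the median of iPSC H3.3 peaks, and its H3.3 fold over input was 2.07. The part of input in this H3K4me3 score was not tested.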

How the data were processed

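H3.3, H3K4me3 and H3K36me3 ChIP-Seq libraries (16, 7 and 7, each 1 sample) were read as deposited peak lists. The 16 input libraries enter only through each peak's input value. Per the study's methods, the authors mapped reads to mm9 with STAR, removed reads with more than 2 mismatches or several loci, and called peaks per library against input with HOMER (versions not stated). The score is a signal in the deposited lists, scaled to 10 M tags, not divided by length and without input subtraction. The fold over input is a deposited ratio, of at least 2 for H3.3 and 4 for the other marks. The Poisson p-value against input, limited by the authors to 0.0001, was not used further.

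The reference genome and GENCODE vM1 (22367 protein-coding genes) are of the same build. The 325 iPSC peaks on unplaced contigs were left out. Overlap meant 1 bp or more, distance was from the midpoint to the nearest protein-coding TSS, and shares carry 95% Wilson intervals. The mean route difference was tested with an exact sign-flip permutation test over 4 days. Members named were the 10 of highest iPSC score, the highest-scoring member of each of up to 15 pluripotency-list genes, 5 each by iPSC H3K4me3 score, by presence in D3 and all successful fractions, by presence in successful fractions alone and by distance, leaving out chromosome 18. A selection of these is described. The members and lists were chosen with earlier results of these data known, and the IAP search, the distance bands by library and the region of chromosome 4 were added after the data were seen. Routines for overlap, class and day of gain were tested on simulated peak lists. Python 3 with numpy, pandas, scipy and pysam was used.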

Additional observations from a re-analysis of the deposited data

Results flagged for a closer look

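Input tags enter the comparisons only through the peak calls and the fold over input. Input was high at 42 members (0.534%), where the input density was over 3 times the median of all iPSC H3.3 peaks. Over all iPSC H3.3 peaks this was 0.386%. Of the 42, 14 lay on chromosome 4 in the stretch of zinc-finger genes spanned by the 7 members of highest score there. The highest named value was at the member nearest to P4ha2 (chr11:53953409-53954431), with 19.6 times the median over 1022 bp and an iPSC score of 258.8, where D12S+ (49.8), D16S+ (141.1), ESD3 (169.5) and D4 (26.3) also had a peak.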

How the results depend on the processing

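Each group had 1 sample, so no replicates could be paired. The fractions of the successful and the unsuccessful route were paired by day alone, and no difference could be set against a replicate spread. Which peaks are called varies with the depth and enrichment of a library. Where at least 0.5 of the iPSC peak had to be covered, this held for D0 and H3K4me3 overlaps too, so the D0 limit was looser. The number of members was 4979 with at least 0.5 of the iPSC peak covered and 1751 when a fold of 4 or more over input was asked of each peak. In the same order, the median share over the 9 other reprogramming libraries (18.8%) was 14.7% and 6.28%, lasting gain before iPSCs (46.0%) was 24.6% and 38.5%, the median distance (31.0 kb) was 29.9 and 55.4 kb, and the iPSC H3K4me3 share (24.6%) was 9.66% and 23.3%. With equal numbers of top-scoring peaks these 4 values were 20.4%, 62.4%, 26.8 kb and 34.6%, and with genes extended by 5 kb 16.0%, 47.1%, 39.0 kb and 23.4%. With genes of any biotype the distance was 20.9 kb and the H3K4me3 share 23.6%. H3K4me3 within 1 kb was found at 31.1% of members. The octamer share was 2.62% in 200 bp windows. The mean route difference stayed positive under each alternative but fell from 16.0 to 8.74 points with 0.5 of the peak covered, where day 12 fell from 12.5 to 1.04 points, and was 12.1 to 17.8 points with each day left out. The median share of members exceeded that of the unshared intergenic peaks by 8.30 points, and by 6.97, 6.60, 6.03 and 8.05 points within the 4 score quartiles. The day 9 difference turned to -1.71 points with a fold of at least 4. Leaving out the 42 members of high input, chosen after seeing the data, kept every main value within its interval. Of 119 further values for single libraries and days, 56 stayed within their interval, 62 moved beyond it and 1 reversed. The causes were not tested.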

Other observations

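The member nearest to Lemd1 (chr1:134084471-134086517), 2.52 kb upstream of the TSS, had its highest H3.3 score in an unsuccessful fraction, with 424.8 in D12S- against 13.8 in D12S+, 23.0 in iPSCs and 27.5 in ESD3. D16S- had 21.2 and D4 had 56.4. H3K4me3 at this member was 130.9 in D0, 705.4 and 501.5 in D6T- and D9T-, 77.1 in D12S+ and 432.8 in iPSCs, and D16S+ had none.

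Per 100 iPSC H3.3 peaks, chromosome X had 18.5 members and chromosome 13 had 13.3, while chromosome 19 had 7.15 and chromosome 11 had 7.83. Per Mb the order was another, with 0.870 on chromosome X and 4.16 on chromosome 11.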
